A study of Mus musculus with 4 samples.

Results

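The genes described here are 10 markers of inhibitory interneurons, chosen by name: Gad1, Gad2, Slc32a1, Pvalb, Sst, Vip, Npy, Cck, Calb2 and Reln. All 10 were found among the 26328 Ensembl genes listed in at least 1 sample. RNA-seq was performed on poly(A) RNA from the hippocampus of male C57BL/6 mice, with 2 wild-type (WT) samples and 2 samples of LSD1 knock-in (KI) mice. In KI mice both copies of Lsd1 (Kdm1a), which encodes a histone demethylase, carry an alanine in place of the serine that PKCα phosphorylates. The substitution is a germline knock-in and is not limited to neurons. The study describes KI and WT mice as littermates. An age of 8 to 15 weeks is given for the animals used in behavior, and none is given separately for these 4 samples. Whether a sample is 1 mouse or a pool is not stated, so the tests measure the spread between samples only.

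Inhibitory interneurons are the minority of hippocampal neurons that release GABA and set the timing and gain of the excitatory pyramidal and granule cells. They are made of classes that target different parts of the principal cell, and the classes are told apart by calcium-binding proteins and peptides: parvalbumin cells contact cell bodies and axon initial segments, somatostatin cells contact dendrites, cholecystokinin cells form another basket cell class, and VIP and calretinin cells mostly inhibit other interneurons. NPY is found in several of these classes and in neurogliaform cells, and reelin in neurogliaform and some somatostatin cells. Several of these genes are also active elsewhere: Cck in pyramidal cells, Reln in Cajal-Retzius cells and Calb2 in mossy cells of the dentate gyrus.

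Values are RPKM, the reads of a gene scaled to its exon length in kb and to the mapped reads of the sample, as the authors deposited them. The values of a gene moved in whole-read steps, from which 8827967 to 14949756 mapped reads per sample were worked out, with the lowest depth in WT replicate 2. Groups were compared with limma on log2(RPKM + 1) over the 18436 genes that reached 0.5 RPKM in 2 or more samples, and a call needed both a Benjamini-Hochberg adjusted p under 0.1 and a 1.2-fold or larger change. Over all these genes 0 were called (0.0%), 1774 (9.62%) had an unadjusted limma p under 0.05, and limma-voom on the recovered reads, a test added after the data were seen, called 119 of 18028 genes (0.66%). Kdm1a itself was at 11.6 and 11.2 RPKM in WT and 10.97 and 11.2 RPKM in KI, and since the knock-in changes 1 residue its level does not check the labels.

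All 10 markers were expressed above the filter. Of the 10, 0 were called by limma on log2(RPKM + 1), against 0.0% of all genes, and 4 had an unadjusted limma p under 0.05, against 9.62% of all genes. limma-voom called 1 of them, Npy, which was lower in KI, against 0.66% of all genes by that test. For Slc32a1, Pvalb and Vip both KI samples exceeded both WT samples, an order that 24.0% of all tested genes showed. Npy and Sst were lower in both KI samples than in either WT sample, an order that 18.1% of all tested genes showed. The groups overlapped for Gad1, Gad2, Cck, Calb2 and Reln. The median log2 fold change of the 10 markers was -0.0031, against 0.01 over all genes tested, and 5 of the 10 had a fold change above 0. Their summed level was 807 and 842 RPKM in WT and 821 and 775 RPKM in KI, so the sums overlapped, with Cck and Sst making up most of them. Because this is bulk tissue, fewer cells of a class and less RNA per cell cannot be told apart.

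**Figure D1:**
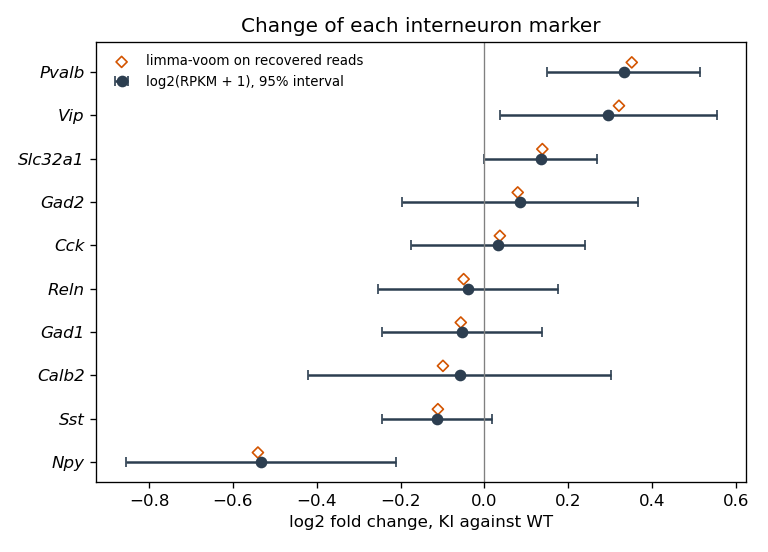
Log2 fold change of KI against WT for each of the 10 markers (filled points, limma on log2(RPKM + 1), bars the 95% confidence interval, 2 samples per group; open diamonds, limma-voom on recovered reads). Npy lay farthest from 0, at -0.53, with Pvalb at 0.33 and Vip at 0.30 on the other side, and the other 7 markers lay between -0.11 and 0.13.

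The markers covered a wide range of levels on the RPKM scale. In WT the order of mean levels was Cck at 370.4 RPKM, Sst at 248, Npy at 80.1, Gad1 at 32.3, Gad2 at 28.1, Slc32a1 at 22.2, Pvalb at 15.8, Calb2 at 15.03, Vip at 8.36 and Reln at 3.87. Cck stood above 99.6% of the tested genes by its mean over the 4 samples, Sst above 99.3%, Vip above 63.8% and Reln above 39.1%. Neighbours in this order were separated in both WT samples except for Pvalb and Calb2, whose WT values overlapped. In KI the order of the means was the same, but there it was Gad1 and Gad2 that overlapped, while both Pvalb values lay above both Calb2 values. The RPKM of a gene depends on the exon length it was counted on, which was 19834 bases for Reln and 7639 for Gad1 but 566 for Npy and 599 for Sst.

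**Figure D2:**
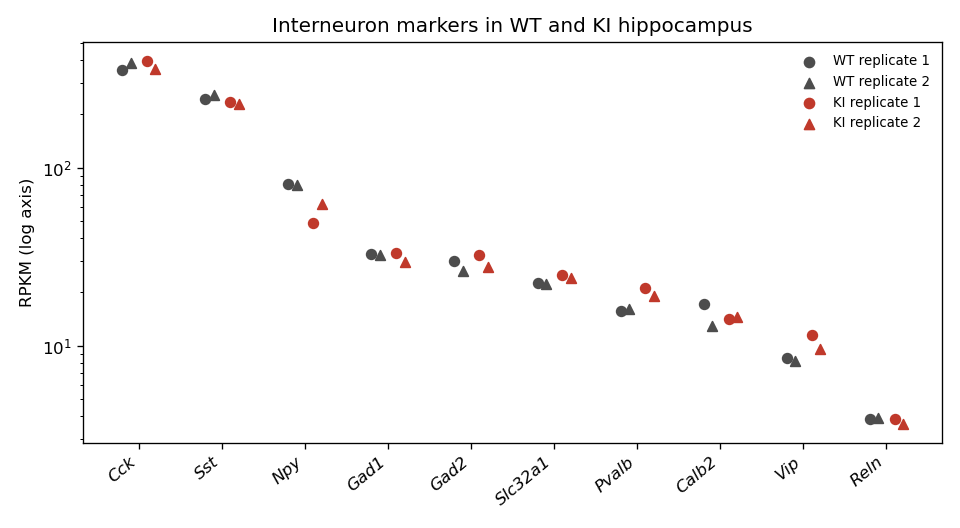
RPKM of the 10 markers in each sample on a log axis, ordered by the WT mean (grey, WT; red, KI; circles, replicate 1; triangles, replicate 2). The 2 red points of Npy lie below the grey ones, those of Pvalb and Vip lie above them, and points of Gad1, Gad2, Cck, Calb2 and Reln mix.

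The genes of GABA synthesis and vesicle filling are shared by all interneuron classes. Gad1, which encodes GAD67, the enzyme that makes most of the GABA of the cell body (ENSMUSG00000070880, chromosome 2, 70553072 to 70602014 in GRCm38), was at 32.5 and 32.2 RPKM in WT and 33.1 and 29.3 RPKM in KI. The KI values fell on either side of the WT values, with a log2 fold change of -0.05 (95% confidence interval -0.24 to 0.14, adjusted p = 0.852 from limma). Gad2, which encodes GAD65, the form tied to synaptic terminals (chromosome 2, 22622205 to 22693874), was at 30.0 and 26.3 RPKM in WT and 32.4 and 27.5 RPKM in KI. Its replicates differed more than its groups did, and the log2 fold change was 0.09 (interval -0.20 to 0.37, adjusted p = 0.836 from limma). The ratio of Gad1 to Gad2 within a sample was 1.08 and 1.22 in WT and 1.02 and 1.07 in KI, lower in both KI samples.

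Slc32a1 encodes VGAT, the transporter that loads GABA into synaptic vesicles (ENSMUSG00000037771, chromosome 2, 158610767 to 158615748). It was at 22.3 and 22.03 RPKM in WT, on 838 and 544 reads, and at 25.0 and 23.9 RPKM in KI, on 1004 and 1001 reads. Both KI values were above both WT values, but the difference was small, at 22.2 ± 0.214 against 24.4 ± 0.722 RPKM (SD, n = 2 each). On the log2(RPKM + 1) scale the difference was 0.13, with a standard error of 0.05 and a limma adjusted p of 0.516. An antisense gene, Gm14205, shares 697 exonic bases with Slc32a1 and was itself listed at 24.6 and 22.4 RPKM in WT and 25.0 and 24.3 RPKM in KI. The strand used in counting is not stated, so reads of the pair cannot be told apart.

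Npy showed the widest difference of the 10 markers. It encodes neuropeptide Y, an inhibitory peptide that dampens glutamate release in the hippocampus and is abundant in hilar interneurons of the dentate gyrus (ENSMUSG00000029819, chromosome 6, 49822710 to 49829507). Npy was at 80.5 and 79.7 RPKM in WT, on 611 and 398 reads, and at 48.6 RPKM in KI replicate 1 and 62.2 RPKM in KI replicate 2, on 396 and 526 reads. The WT samples nearly coincided, and both KI samples were far below them, with KI replicate 1 the lower. The ratio of the means was 0.692, from 80.1 ± 0.577 to 55.4 ± 9.56 RPKM (SD, n = 2 each), and the log2 fold change was -0.53 (standard error 0.12, interval -0.86 to -0.21). The adjusted p was 0.399 from limma on log2(RPKM + 1) and 0.0746 from limma-voom on the recovered reads. With limma-voom and 1 sample left out, the adjusted p of Npy was 0.587 without WT replicate 1, 0.561 without WT replicate 2, 0.0782 without KI replicate 1 and 5.87e-04 without KI replicate 2. With 1 sample left in a group, the spread comes from the other pair alone and the lone sample is assumed to vary as that pair does. The Npy call was absent in the fits without a WT sample, which took the spread from the KI pair, but the limma-voom log2 fold change there was -0.53 without WT replicate 1 and -0.55 without WT replicate 2, against -0.54 with all samples. It was -0.37 without KI replicate 1 and -0.72 without KI replicate 2, so the size of the difference leaned on which KI sample was kept.

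Most markers of dentate granule cells, the principal neurons of the region where many Npy cells lie, were lower in the same samples. Of 8 such markers, all of them tested, 6 had both KI values below both WT values, as 18.1% of all tested genes did. The other 2, Calb1 and Pdzd2, overlapped, with log2 fold changes of -0.29 and 0.10. The median log2 fold change of the 8 was -0.40, and 0 were called by limma while limma-voom called 5 (Prox1, Dsp, C1ql2, Plk5 and Stxbp6), all lower in KI. Over all genes limma-voom called 0.66%. It called none of the 5 in the fits without a WT sample, in which the KI pair alone gave the spread and 4 and 3 genes were called in all. C1ql2, a secreted synapse organizer of the mossy fibers, was at 41.8 and 44.0 RPKM in WT and 30.7 and 34.2 RPKM in KI. Plk5, a kinase-related gene enriched in granule cells, was at 11.5 and 12.2 RPKM in WT and 7.22 and 8.89 RPKM in KI. Stxbp6, which encodes a syntaxin-binding protein, was at 27.9 and 28.0 RPKM in WT and 19.5 and 22.2 RPKM in KI. In each of these genes KI replicate 1 was the lower of the KI samples, as it was for Npy. The summed level of the 8 markers was 140.2 and 139 RPKM in WT and 94.0 and 116 RPKM in KI. Npy divided by this sum was 0.574 and 0.573 in WT and 0.518 and 0.536 in KI, a narrower gap than in Npy itself. How much of the difference in Npy follows the dentate share of the tissue was not tested.

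**Figure D3:**
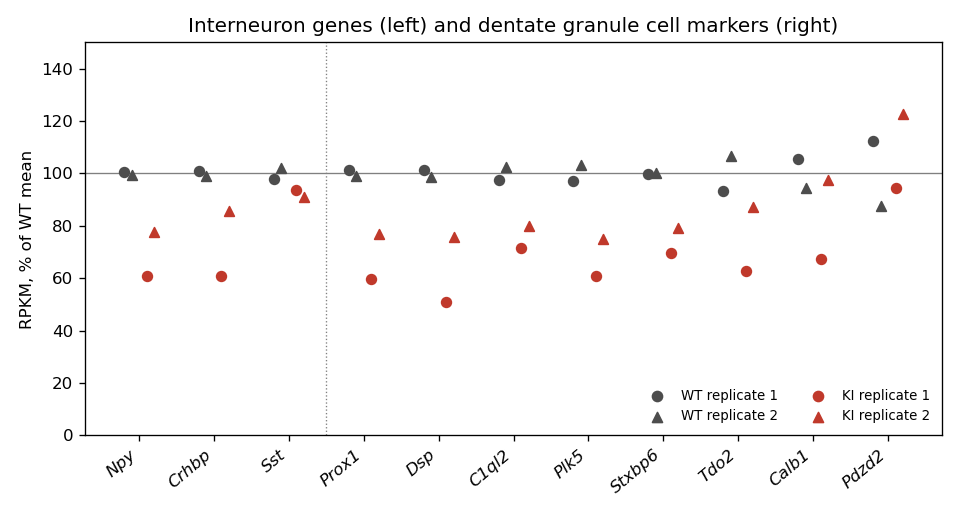
RPKM of each sample as a percentage of the WT mean for Npy, Crhbp and Sst (left of the dotted line) and for the 8 dentate granule cell markers (right). Npy reached 60.8% and 77.6% in the KI samples, and Prox1, at 59.7% and 76.8%, had nearly the same pair of values. Calb1, at 67.3% and 97.6%, and Pdzd2, at 94.3% and 122.6%, did not.

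Sst encodes somatostatin, the peptide of dendrite-targeting interneurons, many of which also make NPY (ENSMUSG00000004366, chromosome 16, 23889573 to 23890958). It was at 243 and 254 RPKM in WT and 233 and 226 RPKM in KI. Both KI values lay below both WT values, but by much less than for Npy, and the log2 fold change was -0.11 (standard error 0.05, interval -0.24 to 0.02, adjusted p = 0.552 from limma). The interval of Sst and that of Npy overlap. Within a sample, the ratio of Npy to Sst was 0.331 and 0.314 in WT and 0.209 and 0.275 in KI, lower in both KI samples. Relative to the dentate marker sum, Sst was at 1.73 and 1.83 in WT and 2.48 and 1.95 in KI, higher in both KI samples, unlike Npy. That sum was itself lower in both KI samples, so a gene that fell by less than the sum rises on this scale. Pvalb, at 0.111 and 0.115 in WT and 0.225 and 0.164 in KI, and Vip were higher on it as well.

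Vip encodes vasoactive intestinal peptide, made by interneurons that mostly inhibit other interneurons (ENSMUSG00000019772, chromosome 10, 5639218 to 5647617). It was at 8.49 and 8.23 RPKM in WT, on 406 and 259 reads, and at 11.5 and 9.59 RPKM in KI, on 588 and 511 reads. Both KI samples were above both WT samples, with KI replicate 1 the higher. The ratio of the means was 1.26 and the log2 fold change 0.30 (standard error 0.10, interval 0.04 to 0.55, adjusted p = 0.490 from limma and 0.250 from limma-voom). limma-voom called neither Vip nor Pvalb with all samples. It called both in the fit without KI replicate 2, where the WT pair alone gave the spread and 738 genes were called in all. Without KI replicate 1 the log2 fold change of Vip on log2(RPKM + 1) dropped to 0.18, so the size of the difference leaned on that sample.

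Cck encodes cholecystokinin, the peptide of the other basket cell class, and is also made by pyramidal cells (ENSMUSG00000032532, chromosome 9, 121489824 to 121495694). It was at 354 and 387 RPKM in WT and 399 and 360 RPKM in KI, on 4676 to 7854 reads per sample. The groups overlapped at this high depth, with a log2 fold change of 0.03 (interval -0.17 to 0.24, adjusted p = 0.927 from limma).

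The 4 peptide genes differ in the promoter letters just before their starts, and these are shown because peptide genes are the members on which cAMP signalling through CREB is best known, the cAMP response element having been described in Sst. Each line gives the 150 bases before the start site in RefSeq (GRCm38.p6), 5′ to 3′ on the strand of the gene, with capitals marking the cAMP response element TGACGTCA, its shorter form TGACG or CGTCA, and the E-box CACGTG, which CLOCK and BMAL1 bind. The windows are chr6:49822560-49822709 on the plus strand for Npy, chr16:23890845-23890994 on the minus strand for Sst, chr10:5639068-5639217 on the plus strand for Vip and chr9:121495695-121495844 on the minus strand for Cck.
Npy: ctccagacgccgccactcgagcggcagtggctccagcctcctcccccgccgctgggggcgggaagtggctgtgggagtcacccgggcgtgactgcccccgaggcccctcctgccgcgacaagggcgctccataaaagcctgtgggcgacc
Sst: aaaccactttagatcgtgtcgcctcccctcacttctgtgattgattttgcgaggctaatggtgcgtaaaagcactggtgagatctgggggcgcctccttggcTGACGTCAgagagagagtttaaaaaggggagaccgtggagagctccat
Vip: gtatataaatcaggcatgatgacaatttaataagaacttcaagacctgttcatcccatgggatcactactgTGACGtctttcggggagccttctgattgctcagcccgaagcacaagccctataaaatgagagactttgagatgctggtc
Cck: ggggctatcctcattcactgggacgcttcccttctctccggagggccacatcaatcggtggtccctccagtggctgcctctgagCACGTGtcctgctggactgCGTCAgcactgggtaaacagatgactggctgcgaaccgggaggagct
Sst held the full palindrome, 48 bases before the start, which is found in 1.36% of 32851 promoter windows of this length. The shorter form, which the full element contains, was present in 13.3% of windows and in 4 of the 10 marker genes, namely Gad2, Cck, Vip and Sst. In Vip it began 79 bases before the start, and in Cck 47. The E-box was present in 4.3% of windows and in 2 of the 10 genes, Cck and Reln. The Npy window held none of these letters. Both strands were searched, and a match is a description of the letters, not a bound site.

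Pvalb encodes parvalbumin, the calcium buffer of fast-spiking basket and chandelier cells (ENSMUSG00000005716, chromosome 15, 78191114 to 78206400). It was at 15.54 and 15.996 RPKM in WT, on 217 and 147 reads, and at 21.2 and 19.1 RPKM in KI, on 317 and 297 reads. The WT samples were nearly the same and both KI samples stood above them. From 15.8 ± 0.323 RPKM in WT to 20.1 ± 1.48 RPKM in KI (SD, n = 2 each), the ratio of the means was 1.28. The log2 fold change was 0.33 (standard error 0.07, interval 0.15 to 0.52), with an adjusted p of 0.364 from limma, the smallest among the 10 markers in that fit, and of 0.250 from limma-voom. As each sample was left out, with either test, the log2 fold change of Pvalb stayed between 0.26 and 0.43. Parvalbumin cells are also dense in the neocortex, and neocortex markers had a higher sum in the same samples, at 67.7 and 71.9 RPKM in WT and 77.1 and 75.0 RPKM in KI. Of the 8 tested, 5 were higher in both KI samples, an order that 24.0% of all tested genes showed, and 3 overlapped. Lamp5, which also marks neurogliaform cells, was among the 5. Fezf2, the most abundant of the list, was among those that overlapped, at 20.3 and 21.4 RPKM in WT and 20.3 RPKM in both KI samples. The part of the neocortex markers in the difference of Pvalb was not tested.

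Calb2 encodes calretinin, a calcium-binding protein of interneuron-selective interneurons and of mossy cells (ENSMUSG00000003657, chromosome 8, 110137502 to 110168210). It was at 17.2 and 12.9 RPKM in WT, on 329 and 163 reads, and at 14.1 and 14.5 RPKM in KI, on 289 and 309 reads. Both KI values lay between the WT values, and the WT replicates differed more than any other pair relative to the level. The log2 fold change of -0.06 had an interval from -0.42 to 0.30, the widest of the 10 markers, and an adjusted p of 0.926 from limma.

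Reln encodes reelin, a secreted matrix protein that guides neuronal layering in development and acts on synapses in the adult (ENSMUSG00000042453, chromosome 5, 21884454 to 22344702). It was at 3.85 and 3.90 RPKM in WT and 3.88 and 3.60 RPKM in KI, on 682 to 1108 reads. The groups overlapped, with a log2 fold change of -0.04 (interval -0.25 to 0.18, adjusted p = 0.915 from limma). Cajal-Retzius cells, which make reelin and calretinin, were represented by 7 markers including these 2 genes, of which 5 were tested and 0 were called, and all 5 overlapped between the groups. Calb2 and Reln are 2 of these 5. Of the rest, Lhx1 and Lhx5 were near 0, with Lhx5 not listed in WT replicate 2 and taken as 0 there. The sum of the list was 21.04 to 25.3 RPKM in WT and 22.3 to 22.6 RPKM in KI. Most of that sum was Calb2 and Reln themselves, so it is not a separate reading of Cajal-Retzius cells.

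To compare the subtype markers with the pool of GABA cells, each was divided by the geometric mean of Gad1, Gad2 and Slc32a1 in the same sample, which was 27.9 and 26.5 RPKM in WT and 29.9 and 26.8 RPKM in KI. This ratio needs no scaling between samples. For Pvalb it was 0.557 and 0.603 in WT and 0.708 and 0.712 in KI. For Vip it was 0.304 and 0.310 in WT and 0.383 and 0.358 in KI. Both were thus higher in KI per level of GABA genes, with the KI samples close to each other. For Npy the ratio was 2.88 and 3.002 in WT and 1.63 and 2.32 in KI, and for Sst it was 8.70 and 9.57 in WT and 7.78 and 8.43 in KI. For Reln it was 0.138 and 0.147 in WT and 0.130 and 0.134 in KI, so Reln, whose RPKM overlapped, was lower in both KI samples on this scale. Cck and Calb2 overlapped. With 2 samples against 2 the smallest two-sided p of an exact permutation test is 0.333, so these ratios are given as values.

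**Figure D4:**
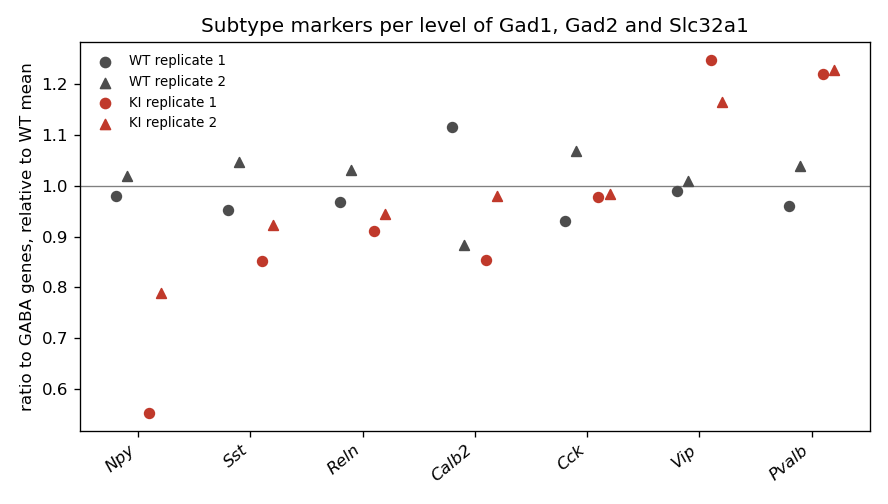
RPKM of each subtype marker over the geometric mean of Gad1, Gad2 and Slc32a1 in the same sample, divided by the mean of that ratio in WT. Npy was at 0.552 and 0.788 in the KI samples, Pvalb at 1.22 and 1.23 and Vip at 1.25 and 1.16, and the WT samples of these 3 genes lay close to 1.

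The developmental transcription factors of interneurons were examined as a list of 17 genes, of which 16 were tested. limma called 0 of them, 3 had both KI values above both WT values (24.0% of all tested genes) and 1 had both below (18.1%). Their median log2 fold change was 0.06. Prox1, a factor of caudally derived interneurons that is far more abundant in dentate granule cells and is also in that list, was at 17.3 and 16.9 RPKM in WT and 10.2 and 13.1 RPKM in KI (log2 fold change -0.52, adjusted p = 0.405 from limma and 0.0378 from limma-voom). Sp8, a factor of the same lineage, was at 0.483 and 0.506 RPKM in WT, on 29 and 20 reads, and at 1.21 and 0.896 RPKM in KI, on 78 and 60 reads, with an adjusted p of 0.479 from limma. The Dlx genes, which switch on the GABA program, showed smaller differences. Dlx1 was at 8.15 and 6.70 RPKM in WT and 8.48 and 8.13 RPKM in KI, which overlapped. Dlx6 was at 1.82 and 1.81 RPKM in WT and 3.04 and 1.89 RPKM in KI, so the distance from WT rested on KI replicate 1. Sp9 was likewise high in KI replicate 1 only, at 2.87 RPKM against 1.86 to 2.04 RPKM in the other 3 samples. Dlx1, Dlx6 and Sp9 each share exonic bases with a gene on the opposite strand.

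Among 30 further genes that mark interneuron subtypes, 29 were tested and limma called 0, with a median log2 fold change of -0.0039. Both KI values were above both WT values for 4 of the 29 and below them for 7, where 24.0% and 18.1% of all tested genes had these orders, so the counts do not set these genes apart. Lamp5, a membrane protein of neurogliaform cells that the neocortex list also holds, was at 11.4 and 12.1 RPKM in WT and 14.96 and 14.05 RPKM in KI (log2 fold change 0.29, adjusted p = 0.399 from limma). Crhbp, which encodes a protein that binds corticotropin-releasing hormone and marks somatostatin cells, was at 16.1 and 15.8 RPKM in WT and 9.73 and 13.7 RPKM in KI (log2 fold change -0.43, adjusted p = 0.508 from limma). Its KI samples had the same order as those of Npy. Adarb2, an RNA-editing family gene of caudally derived interneurons, was at 2.95 and 3.62 RPKM in WT and 2.33 and 2.53 RPKM in KI (log2 fold change -0.32, adjusted p = 0.511 from limma).

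Receptors for the peptides and for reelin were the next list, with 12 of 16 genes tested. limma called 0, and limma-voom called 1, Cckbr, with an adjusted p of 0.0999. Cckbr, the main brain receptor for cholecystokinin, was at 3.14 and 3.35 RPKM in WT, on 117 and 82 reads, and at 5.24 and 4.87 RPKM in KI, on 209 and 202 reads. Both KI samples lay well above both WT samples, with a log2 fold change of 0.51 (standard error 0.08, adjusted p = 0.307 from limma), while its ligand gene Cck overlapped between the groups. Npy2r, the presynaptic NPY receptor, was at 15.4 and 15.2 RPKM in WT and 13.8 and 13.2 RPKM in KI (log2 fold change -0.17, adjusted p = 0.490 from limma). Npy1r, the postsynaptic receptor, was at 11.6 and 10.7 RPKM in WT and 7.91 and 10.7 RPKM in KI, so only KI replicate 1 lay below the WT samples. Sstr2, a somatostatin receptor, was at 3.58 and 4.55 RPKM in WT and 4.90 and 5.31 RPKM in KI. Dab1, the adaptor through which reelin signals, was at 18.1 and 19.1 RPKM in WT and 15.8 and 17.2 RPKM in KI. The adjusted p from limma was 0.551 for Sstr2 and 0.527 for Dab1. Npy4r was listed in no sample, and Cckar was not listed in either KI sample, which was taken as 0, and had 2 and 1 reads in WT.

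Of 7 genes for GABA uptake and breakdown, 6 were tested and limma called 0, with 4 higher and 1 lower in both KI samples (24.0% and 18.1% of all tested genes) and a median log2 fold change of 0.07. Slc6a13, a GABA transporter of the meninges and vessels, was at 1.69 and 1.64 RPKM in WT and 1.149 and 1.198 RPKM in KI. Abat, the enzyme that degrades GABA, was at 36.3 and 32.2 RPKM in WT and 38.2 and 36.5 RPKM in KI. Slc38a1, a glutamine transporter that feeds GABA synthesis, was at 21.96 and 21.83 RPKM in WT and 22.7 and 23.6 RPKM in KI. The adjusted p from limma was 0.497, 0.638 and 0.663 for these 3 genes.

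Expression of several peptide genes depends on neuronal activity, so 13 activity-regulated genes were read as well. Of the 12 tested, limma called 0, 5 were higher in both KI samples (24.0% of all tested genes were) and 0 lower (18.1% were), and the median log2 fold change was 0.10. Npas4, an activity-induced factor that regulates inhibitory synapses, was at 4.87 and 3.46 RPKM in WT and 6.01 and 6.92 RPKM in KI. Arc was at 61.7 and 52.3 RPKM in WT and 70.1 and 69.8 RPKM in KI, Nr4a1 at 28.0 and 25.8 RPKM and 33.1 and 29.5 RPKM, and Fos at 4.56 and 3.90 RPKM and 5.38 and 4.98 RPKM. Their adjusted p from limma were 0.476 for Npas4 and Arc, 0.516 for Nr4a1 and 0.527 for Fos. These genes were higher in the samples in which Npy was lower and Vip higher, a relation that was not tested, and WT replicate 2 was the lowest sample for each of the 4.

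**Figure D5:**
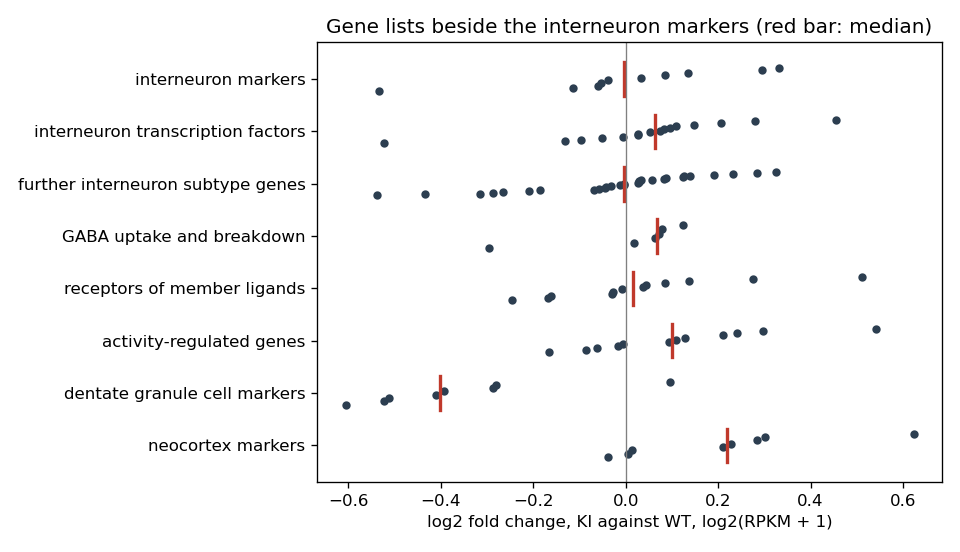
Log2 fold change of KI against WT for the tested genes of 8 lists, 1 point per gene, with the median of each list as a red bar. The interneuron markers center on 0, at -0.0031, with Npy apart on the left, and the dentate granule cell markers lie mostly to the left, with a median of -0.40.

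The other cell types that a hippocampal dissection could hold were read from marker lists. limma called 0 genes in each of these lists. Pyramidal neuron markers summed to 1264 RPKM in both WT samples and to 1232 and 1215 RPKM in KI. Neocortex markers were higher in both KI samples for 5 of the 8 tested and lower for 0 (24.0% and 18.1% of all tested genes), with Rspo1 at 0.308 and 0.351 RPKM in WT and 1.29 and 0.828 RPKM in KI and Cux2 at 2.95 and 3.46 and at 4.09 and 4.26 RPKM. Striatum markers were higher in both KI samples for 4 of the 9 and lower for 2, against the same shares of all genes, with a median log2 fold change of 0.13. The lower ones were Rgs9 and Pde10a, named after their values were seen. Drd2, which encodes a dopamine receptor and was among the genes limma-voom called, was at 1.30 and 1.24 RPKM in WT and 2.51 and 2.46 RPKM in KI. The study also reported higher Drd2 by qRT-PCR in KI hippocampus and in cultured hippocampal neurons given a PKCα inhibitor. The summed striatum markers were at 51.7 and 49.6 RPKM in WT and 56.8 and 53.2 RPKM in KI. Thalamus markers overlapped in their sum, at 36.4 and 32.1 RPKM in WT and 39.6 and 34.9 RPKM in KI. The most abundant gene of this list was Calb2, itself an interneuron marker described above. Calb2 was at 17.2 and 12.9 RPKM in WT and 14.1 and 14.5 RPKM in KI, and the overlap of the sum came from its spread in WT. Of the 6 tested thalamus markers 2 were higher and 1 lower in both KI samples, where 24.0% and 18.1% of all tested genes were. Their median log2 fold change was -0.02. The gene of that list with the smallest unadjusted p, Prkcd, was at 7.88 and 6.48 RPKM in WT and 12.4 and 9.07 RPKM in KI. Choroid plexus markers stood out in KI replicate 1, with a sum of 60.6 RPKM against 14.3 to 19.9 RPKM in the other 3 samples, mostly from Ttr at 51.3 RPKM. In the choroid plexus list limma-voom called Kl, which was at 4.87 and 5.14 RPKM in WT and 7.05 and 6.72 RPKM in KI. Kl was thus higher in both KI samples, whereas Ttr was at 8.89 RPKM in KI replicate 2, within its WT values of 8.13 and 13.8 RPKM. Astrocyte markers summed to 462 and 453 RPKM in WT and 476 and 490.3 RPKM in KI, oligodendrocyte markers to 810 and 930 RPKM and to 1026 and 775 RPKM, and microglia markers to 58.5 and 58.2 RPKM and to 61.3 and 57.6 RPKM. KI replicate 1, the sample with the lowest Npy and the highest Vip and Pvalb, thus also had the lowest sum of dentate markers. Its sums were the highest for choroid plexus, neocortex, striatum, thalamus, oligodendrocyte and microglia markers, but not for astrocyte or pyramidal neuron markers. The part of these in the interneuron values was not tested.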

How the data were processed

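Hippocampal poly(A) RNA of 2 WT and 2 KI samples was sequenced as paired reads. The authors aligned reads with GSNAP to mm10 and deposited RPKM per gene of Ensembl release 74. A read count and a counted exon length per gene were recovered from the RPKM steps, giving whole reads for 26305 of 26328 genes (relative tolerance 1e-06). Where the gene was the same, 15469 of the lengths equalled those of a later annotation, GENCODE M21 on the same assembly.

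RPKM values were compared as log2(RPKM + 1) with limma 3.58.1 in R 4.3.3, with a mean-variance trend, over genes at 0.5 RPKM or more in 2 samples. The pseudocount understates changes of low genes. Calls needed a Benjamini-Hochberg adjusted p under 0.1 and a change of 1.2-fold. The study kept pairs that mapped uniquely and properly. Whether a pair counted as 1 or 2, and the strand used, is not given in the sources used here. A gene not listed in a sample was taken as 0. limma-voom on the recovered reads was added after the data were seen. Both tests were also run on simulated data with 2 samples per group, the outcome of which is not reported here. The simulated data did not cover the fits that left out 1 sample.

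The markers and gene lists were chosen with earlier results of these data known. The text names all 10 markers and, from each list, called genes or else those with the smallest unadjusted p (3, or 5 for receptors and transcription factors), and Npas4, Fos, Arc and Kdm1a. Genes called by limma-voom alone, and Npy4r, Cckar, Lhx1, Lhx5, Ttr, Fezf2, Calb1 and Pdzd2, were named after their values were seen. Promoter letters are from RefSeq (GRCm38.p6), 150 bases before each start. Some genes of the cell type marker lists are counted but not reported here by name.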

Additional observations from a re-analysis of the deposited data

How the results depend on the processing

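The count of called genes was 0 with a pseudocount of 0.1, with no filter, with median-of-ratios scaling, with a 1.5-fold threshold and with limma on log2(RPKM + 1) without any 1 sample. It was 1 with at least 10 reads required in every sample (lower in KI), 20 with no mean-variance trend (17 higher, 3 lower in KI) and 119 with limma-voom on the recovered reads (88 higher, 31 lower). Over all fits that left out 1 sample the count ran from 0 to 738: limma-voom called 4 and 3 genes without WT replicate 1 or 2, and 347 and 738 without KI replicate 1 or 2. limma-voom called 1 of the 10 markers (Npy, log2 fold change -0.54, adjusted p = 0.0746), 2 genes of the lists around them (Cckbr and Prox1) and 9 of the cell type marker lists. With 1 sample left out these counts ran from 0 to 3, from 0 to 17 and from 0 to 21, and without either WT sample limma-voom called 0 of them. A group of 1 is then assumed to vary like the other pair, which alone gives the spread, so these counts follow which pair remains. The cause of the other differences was not tested.

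Signs turned only in fits that left out 1 sample, and only for markers whose groups overlapped. With limma on log2(RPKM + 1) the log2 fold change then ran from -0.139 to 0.032 for Gad1, -0.030 to 0.201 for Gad2, -0.041 to 0.107 for Cck, -0.251 to 0.133 for Calb2 and -0.082 to 0.0038 for Reln. With limma-voom it ran from -0.144 to 0.033 for Gad1, -0.040 to 0.199 for Gad2 (-0.0055 without WT replicate 2), -0.036 to 0.112 for Cck (-0.031 without WT replicate 1), -0.267 to 0.141 for Calb2 and -0.103 to 0.0056 for Reln. The median of the 10 markers ran from -0.06 to 0.07 in those fits.

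Samples that share a replicate number did not deviate together (r = -0.025 across 18436 genes, which are not independent), so the numbers are not taken to pair them. With the replicate number as a block 0 genes were called and no marker or list gene changed its call. The block together with at least 10 reads in every sample, chosen after seeing the data, called 54 genes (42 higher, 12 lower). Depth limited the low genes most, since 1 read on 2 kb of exon was worth 0.0334 to 0.0566 RPKM, and Pvalb rested on as few as 147 reads in WT replicate 2.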
